A study of Mus musculus with 7 samples.

Results

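The genes described here are 34 transcripts of glucose use: glucose carriers, the enzymes of each step from glucose to lactate, the Pfkfb enzymes that set the level of a phosphofructokinase activator, the lactate carriers and the pyruvate dehydrogenase kinases. They were picked by name, as the isoforms of 15 steps, with earlier results of these data known. They are 34 of the 50600 genes in each table. In 33 of them reads were counted. Pklr, the liver and red cell pyruvate kinase, had a count of 0 in all 7 libraries, which allows up to 0.0946 to 1.06 CPM (counts scaled to library size) depending on the library's depth.

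Most steps of glycolysis can be run by more than 1 isoenzyme, each from its own gene, and tissues differ in which they use. Muscle and fat take up glucose through the insulin-responsive carrier GLUT4 and trap it with hexokinase 2, whereas GLUT1 and hexokinase 1 serve many cell types at rest and in growth. Muscle also has its own phosphofructokinase, phosphoglycerate mutase and enolase. Tumours commonly take up more glucose and release more lactate than the tissue around them.

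RNA was sequenced from 3 mammary glands labelled as controls and from 4 mammary tumours labelled ECD transgenic, a name that refers to the cell cycle gene Ecd. By histology, 1a and 1b are adenosquamous, 3 is a spindle cell and 4 a papillary tumour, and each was sampled as a piece from its centre. The sources used here do not give the strain, age or treatment, the genotype of the controls, or the promoter and species of the transgene. The design text calls the tumours independent, yet the number 1 is common to 1a and 1b. Whether both grew in 1 animal is not stated, so the spread between that pair may be smaller than between animals.

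The libraries held 5148436 to 35631302 counts, of which mitochondrial genes took 48.4% to 64.8% in glands and 18.3% to 32.6% in tumours. The 34 genes took 0.574% to 1.07% of the nuclear counts in glands and 0.452% to 0.604% in tumours. The tissue makeup differed with the comparison. Mammary epithelium markers (10 genes) had a mean of 4.08 to 4.76 log2 CPM in glands and 5.25 to 6.75 in tumours. Adipocyte markers (12 genes) had a mean of 7.30 to 8.65 log2 CPM in glands and -0.33 to 3.0 in tumours, with 3 of them at 0 in tumour 1b and 4 in the spindle cell tumour. Skeletal muscle markers (17 genes) had a mean of 8.91 and 10.1 log2 CPM in control glands 1 and 3, but 0.49 in gland 2 and -1.82 to 3.75 in the tumours. In such bulk tissue, fewer cells of a type and less RNA per cell cannot be told apart.

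Across all 4 tumours 6 of the 33 measured genes changed, at an adjusted p under 0.05 in edgeR's quasi-likelihood test over all genes. Slc2a1 rose, 1 of 33 where 3.9% of all 14149 genes tested rose. Slc2a4, Hk2, Pfkfb1, Pfkfb3 and Aldoa fell, 5 of 33 where 4.57% of all genes fell. The share that rose was thus near that of all genes, and the share that fell was above it. The median log2 fold change was -0.23 over the 33 genes and 0.12 over all genes. Without control gland 3 only Pfkfb1 passed, and without gland 1 only Pfkfb1 and Pfkfb3. Against gland 2 alone, 1 library assumed to vary like the tumours, no gene of all 16520 passed in edgeR (9 of the 33 did at an unadjusted p under 0.05). DESeq2 called Hk3 and Pgam1 higher and Gpi1, Pfkm, Eno3 and Pdk2 lower besides these, 3 higher and 9 lower in all. Limma-voom called 2 higher and 5 lower, adding Pgam1. In log2 CPM, all 4 tumours lay above all 3 glands for 2 genes, Slc2a1 and Pgam1, where 16.3% of all genes did, and below them for 7 genes, where 13.2% of all genes did. Those 7 were Slc2a4, Hk2, Gpi1, Pfkfb1, Pfkfb3, Aldoa and Pdk2.

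**Figure D1:**
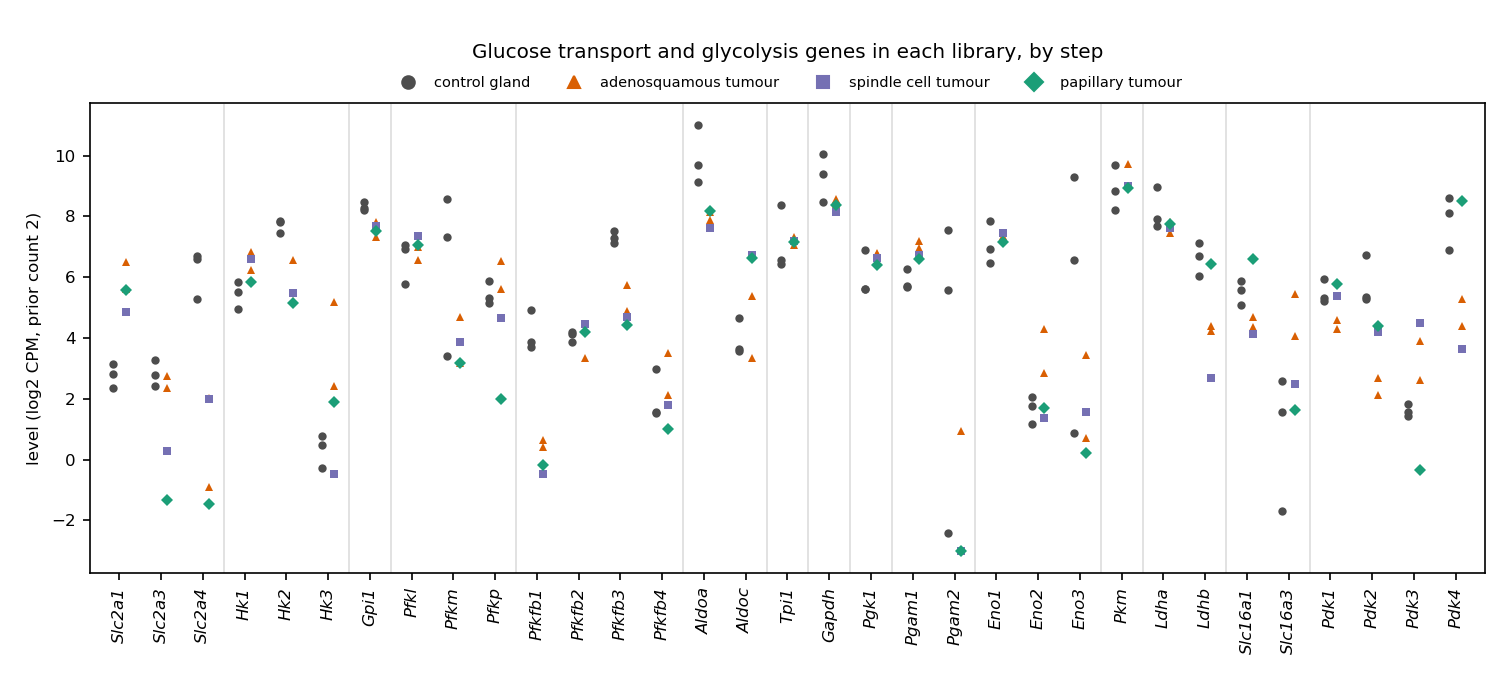
Level of each of the 33 genes with counts in every library, as log2 CPM with a prior count of 2, ordered by step along the horizontal axis, with grey lines between steps. Glands are grey circles on the left of each gene and tumours coloured symbols on the right. Slc2a1 and Pgam1 have every tumour above every gland. Slc2a4, Hk2, Gpi1, Pfkfb1, Pfkfb3, Aldoa and Pdk2 have every tumour below.

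In the 2 adenosquamous tumours set against the 3 glands, 2 of the 33 genes rose, Slc2a1 and Hk3, where 5.01% of 14708 genes rose. Slc2a4, Pfkfb1, Pfkfb3, Ldhb, Pdk2 and Pdk4 fell, 6 of 33 where 5.36% of all genes fell. The 2 comparisons share their control glands. Without control gland 3 or without tumour 1b no gene of all 14034 and 17423 tested passed in edgeR, so none of these did (17 and 11 at an unadjusted p under 0.05). Without tumour 1a Slc2a1 and Hk3 passed, among 53 higher and 37 lower of 17201 genes. With 1a or 1b left out the tumour arm is 1 library, which is assumed to vary like the glands. The numbers that rose and fell were 1 and 2 without gland 1, and 1 and 9 without gland 2. DESeq2 called 6 higher and 10 lower.

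**Figure D2:**
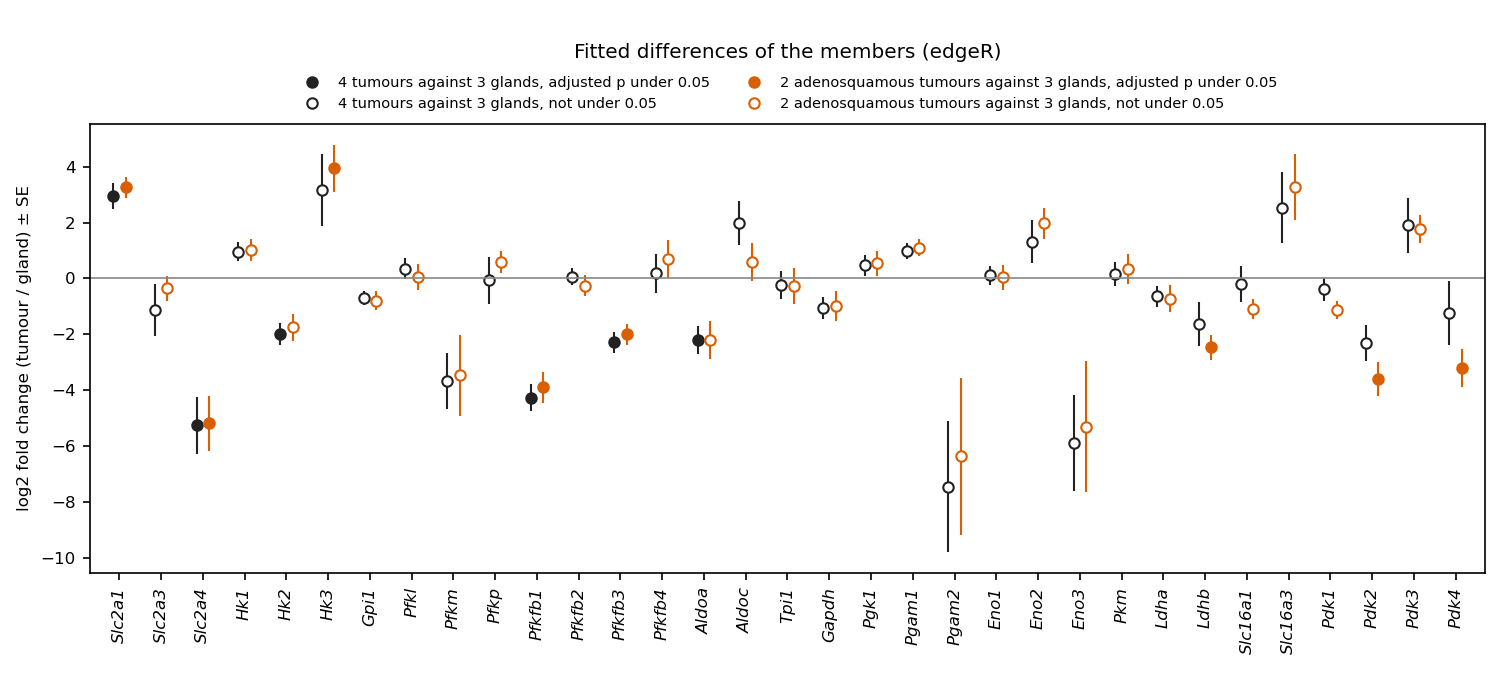
Fitted log2 fold change of each gene, tumour over gland, with its standard error (SE), for all 4 tumours (black) and for the 2 adenosquamous tumours (orange), against the same 3 glands. Filled points passed at an adjusted p under 0.05 in edgeR; Pgam2 and Eno3 have the lowest values but error bars too wide to pass.

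The stretches before 4 of these genes are shown for the following reasons: Slc2a1 and Pgam1 are the pair with every tumour above every gland, Hk2 is the hexokinase that fell, and Pgam2 is the muscle partner of Pgam1. Each is the 250 bases upstream of the RefSeq start (GRCm38.p6), 5′ to 3′ on the gene's strand. Capitals mark ACGTG or GCGTG on either strand, the core letters that hypoxia-inducible factors recognise. The window of Slc2a1 is chr4:119108495-119108744 (plus strand), of Hk2 chr6:82774455-82774704 (minus strand), of Pgam1 chr19:41911621-41911870 (plus strand) and of Pgam2 chr11:5803797-5804046 (minus strand).
Slc2a1: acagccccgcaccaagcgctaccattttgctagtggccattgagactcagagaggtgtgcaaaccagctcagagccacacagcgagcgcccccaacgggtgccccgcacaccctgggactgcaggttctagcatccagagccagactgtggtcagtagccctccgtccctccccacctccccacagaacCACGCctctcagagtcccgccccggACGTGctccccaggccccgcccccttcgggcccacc
Hk2: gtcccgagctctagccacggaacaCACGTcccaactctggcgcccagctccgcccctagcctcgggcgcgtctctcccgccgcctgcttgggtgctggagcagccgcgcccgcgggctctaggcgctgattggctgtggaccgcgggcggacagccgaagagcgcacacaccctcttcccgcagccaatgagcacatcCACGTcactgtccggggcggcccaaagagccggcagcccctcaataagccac
Pgam1: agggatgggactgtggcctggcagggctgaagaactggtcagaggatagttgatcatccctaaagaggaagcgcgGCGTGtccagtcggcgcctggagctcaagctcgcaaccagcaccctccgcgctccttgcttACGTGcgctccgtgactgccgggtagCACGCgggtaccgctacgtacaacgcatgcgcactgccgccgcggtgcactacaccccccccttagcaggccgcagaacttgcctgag
Pgam2: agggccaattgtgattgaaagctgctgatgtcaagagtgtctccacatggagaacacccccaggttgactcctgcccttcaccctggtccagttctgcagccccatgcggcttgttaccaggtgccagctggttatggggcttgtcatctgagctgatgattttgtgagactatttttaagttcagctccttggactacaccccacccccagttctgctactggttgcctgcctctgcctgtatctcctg

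The cores occur 2 times before Slc2a1, which rose, 2 times before Hk2, which fell, 3 times before Pgam1 and 0 times before Pgam2. They are thus present before a gene that rose and before a gene that fell. RefSeq held 52 start windows for 32 of the 34 genes. ACGTG or GCGTG was in 37 of these 52 windows (71.2%), from 27 genes, against 38.6% of all 32851 windows. ACGTG alone was in 19 of the 52 and in 16.6% of all windows, and GCGTG alone in 25 and in 28.2%. CACGTG, the E-box that contains ACGTG, was in 6 of the 52 windows and in 6.02% of all. Only a strict form of the MEF2 motif was searched, and it was in 0 of the 52 and in 0.508% of all windows. Looser forms were not counted, so this 0 does not show that the windows, that of Pgam2 included, lack MEF2 sites. TATAAA was in 3 of the 52 and in 12.4% of all windows. A match is a string of letters in the window and not a measured binding site. Windows of 1 gene can overlap, so a site may be counted more than once. The set of all windows was not matched to these genes for base content, on which such shares depend.

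The transcripts of glucose carriers were mostly those of Slc2a4 in glands and mostly those of Slc2a1 in tumours. Slc2a1 (chr4:119108711-119137983, GRCm38), which encodes GLUT1, the carrier for basal uptake, was at 4.95, 6.87 and 8.67 CPM in glands 1, 2 and 3. It was at 49.3 and 89.7 CPM in adenosquamous tumours 1a and 1b, 29.0 CPM in the spindle cell tumour and 47.2 CPM in the papillary tumour. Every tumour was above every gland, a 7.76-fold rise (log2 2.96, SE 0.45, adjusted p = 0.0136). The call of Slc2a1 was lost without gland 1 or gland 3. Gm12867 and Gm12868 overlap the span of Slc2a1, introns included, on the opposite strand. Hk2 (Gm17034), Pfkfb1 (Apex2), Pfkfb3 (Gm10851) and Aldoa (Fam57b) have such a neighbour too. Whether their exons overlap was not tested, and reads from any shared exon could not be told apart by strand. The counts of each of these members held fractional estimates in 0 libraries.

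Slc2a4 (chr11:69942539-69948188), which encodes GLUT4, was at 38.6, 96.3 and 105 CPM in the glands. The tumours, in the order 1a, 1b, 3 and 4, were at 3.92, 0.408, 3.84 and 0.244 CPM, of which 0.408 is 3 counts. All tumours lay below all glands, a 38.3-fold fall (log2 -5.26, SE 1.02, adjusted p = 0.0263). This call was lost when any 1 gland, tumour 1b or the spindle cell tumour was left out. In gland 2, where muscle markers were low, Slc2a4 was nearly as high as in gland 3. The adipocyte marker mean was lower in each tumour than in each gland, as were Slc2a4, Hk2, Pfkfb3 and Pfkfb1, and the part of fat cells in these differences was not tested.

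Slc2a3, which encodes the high-affinity carrier GLUT3, was at 5.21 to 9.55 CPM in glands, at 6.55 and 5.03 CPM in the adenosquamous tumours, and at 1.08 and 0.279 CPM in the spindle cell and papillary tumours. Its log2 difference over all tumours was -1.15 (SE 0.93, adjusted p = 0.445). Per length (CPM per kilobase of exon), Slc2a1 made up 8.02% ± 1.98 (SD, n = 3) of the 3 carriers' transcripts in glands and 92.6% ± 6.40 (SD, n = 4) in tumours, and Slc2a4 87.1% ± 5.91 and 4.89% ± 5.43. The summed level of the 3 carriers was 25.9 ± 10.6 CPM per kilobase in glands and 16.4 ± 7.19 in tumours, with overlapping values (two-sided exact permutation p = 0.229, adjusted p = 0.343 over 15 steps).

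**Figure D3:**
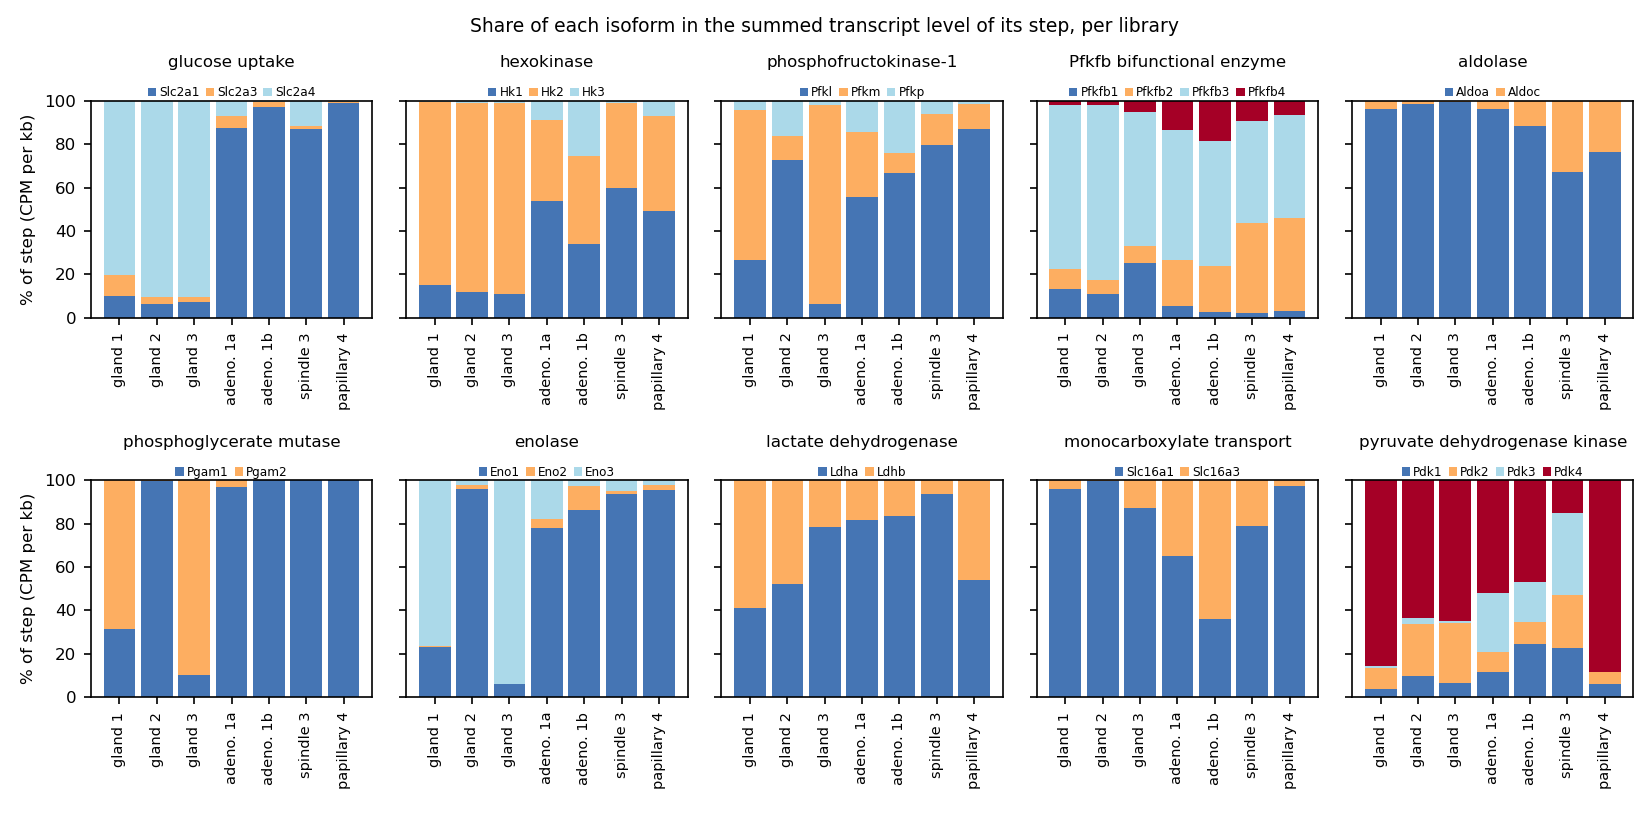
Share of each isoform in the summed transcript level of its step, in percent of CPM per kilobase of exon, for each of the 7 libraries and 10 steps with several measured isoforms. In the uptake panel Slc2a4 fills most of each gland's bar and Slc2a1 most of each tumour's; in the mutase and enolase panels glands 1 and 3 differ from gland 2.

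At the hexokinase step, which traps glucose as glucose 6-phosphate, Hk2 had more counts than Hk1 in each gland and fewer in each tumour. Hk2 (chr6:82725025-82774454), the insulin-responsive hexokinase of muscle and fat, was at 224, 229 and 176 CPM in the glands and at 36.9, 94.0, 45 and 35.5 CPM in tumours 1a, 1b, 3 and 4. The ranges did not overlap, and Hk2 fell 3.97-fold (log2 -1.99, SE 0.40, adjusted p = 0.0282). Hk2 did not pass when any 1 gland, tumour 1a or tumour 3 was left out. Hk1, the hexokinase found in most tissues, was at 57.3, 45.3 and 31.0 CPM in the glands and at 75.2, 114, 97.7 and 57.2 CPM in the tumours. The papillary tumour was level with gland 1 and the other 3 tumours were above all glands (log2 0.95, SE 0.34, adjusted p = 0.118).

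The log2 ratio of Hk2 to Hk1 was 1.97 to 2.49 in the glands and -1.12 to -0.28 in the tumours, so Hk2 had more counts than Hk1 in each gland and fewer in each tumour. The difference of the means was -3.04 on the log2 scale. Its spread was 0.27 (SD) among glands and 0.38 among tumours, and in gland 2, with muscle markers low, it was 2.33. The exact permutation p was 0.0571, the smallest that 4 against 3 libraries can give (adjusted p = 0.171 over 18 pairs). Per length, Hk2 held 86.5% ± 1.84 of the step in glands and 40.2% ± 2.52 in tumours. Hk1 held 12.7% ± 2.17 and 49.2% ± 10.9. By this length Hk2 still held more than Hk1 in tumour 1b (40.3% against 34.2%), and less in the other tumours. With the longest transcript as length, Hk1 held on average 21.1% and 63.3% and Hk2 78.1% and 28.4%.

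Hk3, the hexokinase of white blood cells, was highest in adenosquamous tumour 1b. It was at 0.707, 1.61 and 1.28 CPM in the glands, 5.28 and 36.6 CPM in tumours 1a and 1b, 0.591 CPM in the spindle cell tumour and 3.59 CPM in the papillary tumour. The value of gland 1 is 2 counts, under the limit of 3, and that of the spindle cell tumour is 6 counts. Only the adenosquamous pair and the papillary tumour were above the glands. In the adenosquamous tumours Hk3 rose 15.4-fold (log2 3.95, SE 0.84, adjusted p = 0.0415), and this call was lost in limma-voom and when any 1 gland or tumour 1b was left out. It was 2.05 on the log2 scale at its lowest, without tumour 1b. Neutrophil markers (7 genes) had a mean of 1.64 and 2.24 log2 CPM in tumours 1a and 1b, against -2.55 to -1.71 in glands and -2.05 and -1.21 in the spindle cell and papillary tumours. Of these markers 0 and 1 were at 0 counts in 1a and 1b, and 6, 3 and 2 in glands 1, 2 and 3. In the spindle cell and papillary tumours 3 and 2 were at 0 counts. Macrophage markers (8 genes) had a mean of 5.09 and 5.38 in 1a and 1b, 2.97 to 4.13 in glands and 3.02 and 3.92 in the other tumours. The part of these cells in the level of Hk3 was not tested. Gpi1, the isomerase that follows, was at 295, 355 and 310 CPM in glands and 162, 226, 208 and 183 CPM in tumours, all tumours below all glands (log2 -0.72, SE 0.25, adjusted p = 0.113 in edgeR and 0.00754 in DESeq2).

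At phosphofructokinase-1, the first committed step, the glands differed among themselves more than they differed from the tumours. Pfkm, the muscle subunit, was at 159, 10.6 and 385 CPM in glands 1, 2 and 3 and at 25.6, 8.84, 14.6 and 8.99 CPM in the tumours. Gland 2 lay among the tumours and the other glands above all of them (log2 -3.67, SE 1.01, adjusted p = 0.065). Without gland 2 Pfkm passed (log2 -4.23, adjusted p = 0.0226), without gland 3 the log2 difference was -2.54, and against gland 2 alone it was 0.38. Pfkl, the liver-type subunit, was at 121, 133 and 54.4 CPM in glands and 94.9 to 165 CPM in tumours (log2 0.34, SE 0.37, adjusted p = 0.574). Per length, Pfkl held 26.5%, 72.5% and 6.46% of the step in glands 1, 2 and 3 and 55.6% to 87.1% in tumours. Pfkp, the platelet-type subunit, was at 35.5 to 59.1 CPM in glands and at 49.3, 92.4, 25.3 and 3.90 CPM in tumours 1a, 1b, 3 and 4. The papillary tumour held the lowest value of Pfkp among the 7 libraries, and the log2 difference over all tumours was -0.07 (SE 0.84, adjusted p = 0.965).

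The Pfkfb genes encode enzymes that make and break fructose 2,6-bisphosphate, the activator of phosphofructokinase-1. Pfkfb3 (chr2:11471433-11554077), the isoform with the strongest kinase side, was at 155, 184 and 140 CPM in glands and at 29.7, 53.7, 25.6 and 21.4 CPM in tumours. No tumour reached the lowest gland, and Pfkfb3 fell 4.90-fold (log2 -2.29, SE 0.36, adjusted p = 0.0144). It did not pass without gland 3. Pfkfb1 (chrX:150588229-150643878), the liver and muscle isoform, was at 14.5, 13 and 30.4 CPM in glands and at 1.45, 1.22, 0.591 and 0.767 CPM in tumours. It fell 19.3-fold (log2 -4.27, SE 0.49, adjusted p = 0.00882), with no overlap, and passed in 14 of 15 alternatives. The exception was the comparison with gland 2 alone.

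Pfkfb2, the heart isoform, and Pfkfb4, the testis isoform, did not follow Pfkfb3. Pfkfb2 was at 18, 14.4 and 17.5 CPM in glands and at 10.1, 19.2, 22 and 18.3 CPM in tumours (log2 0.06, SE 0.32, adjusted p = 0.914). Pfkfb4 was at 2.83, 2.74 and 7.82 CPM in glands and 4.26, 11.3, 3.35 and 1.88 CPM in tumours (log2 0.18, SE 0.71, adjusted p = 0.888). Within the family the log2 ratio to Pfkfb3 differed, tumours minus glands, by 2.38 for Pfkfb2, 2.46 for Pfkfb4 and -1.69 for Pfkfb1, with no overlap between glands and tumours (exact permutation p = 0.0571 for each, the smallest possible, adjusted p = 0.171). The family's summed level was 29.2 ± 1.68 CPM per kilobase in glands and 8.03 ± 2.94 in tumours. Pfkfb2 held 7.92% ± 1.26 of it in glands and 31.7% ± 12 in tumours, with 41.8% and 42.6% in the spindle cell and papillary tumours.

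Of the 18 isoform pairs with counts, 6 had every tumour on one side of every gland, against 29.3% of all pairs of tested genes, so the share was near the background. These were Slc2a1 to Slc2a4, Slc2a3 to Slc2a1, Hk2 to Hk1 and the 3 ratios to Pfkfb3. The difference was 8.66 for Slc2a1 to Slc2a4 and -4.68 for Slc2a3 to Slc2a1 on the log2 scale, each with an exact permutation p of 0.0571 (adjusted p = 0.171). With gland 2 left out there were 10 such pairs, where 37.5% of all pairs of genes were without overlap, and with the papillary tumour left out also 10, where 36.8% were.

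**Figure D4:**
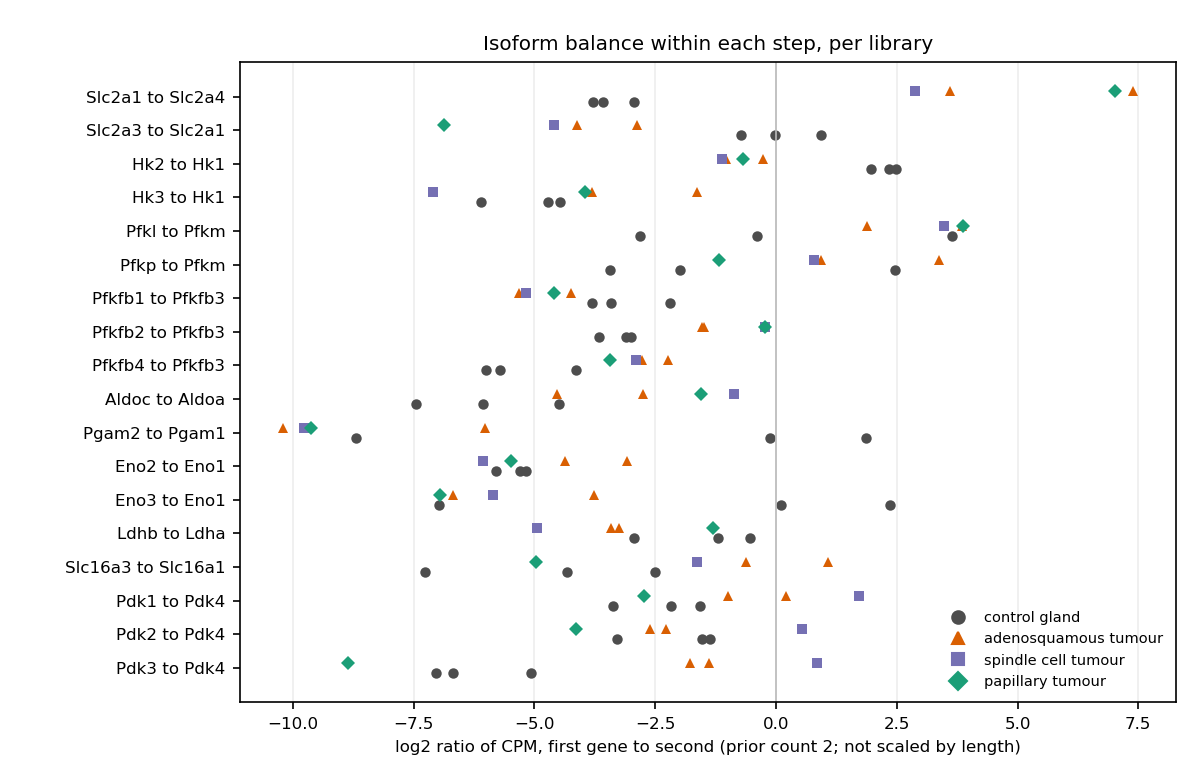
Log2 ratio of CPM between isoforms of a step in each library, for 18 pairs. Grey circles are glands and coloured symbols tumours; the ratio of Hk2 to Hk1 lies above 0 in each gland and below 0 in each tumour, and the ratios of Pgam2 to Pgam1 and Eno3 to Eno1 spread widely among the glands.

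Aldolase splits fructose 1,6-bisphosphate. Aldoa (chr7:126795234-126800751), the muscle and general isoform, was at 564, 834 and 2071 CPM in glands and at 237, 284, 195 and 288 CPM in tumours. The tumours lay close together below the lowest gland, a 4.61-fold fall (log2 -2.20, SE 0.49, adjusted p = 0.0376). The call was lost in 8 of 15 alternatives, among them those that left out any 1 gland, tumour 1a, tumour 1b or tumour 3. Without gland 3, the library with the highest muscle marker mean, the log2 difference was -1.48, and against gland 2 alone, where that mean was 0.49, it was -1.79. The part of muscle in this difference was not tested. Aldoc, the brain isoform, was at 25.1, 12.4 and 11.8 CPM in glands and 10.04 and 41.8 CPM in tumours 1a and 1b, with 107 CPM in the spindle cell and 98.6 CPM in the papillary tumour. Tumour 1a was below all glands and the other tumours above them (log2 1.99, SE 0.78, adjusted p = 0.145). Without tumour 1a Aldoc passed (log2 2.38, adjusted p = 0.043). Aldoc held 0.504% to 3.82% of the step in glands. Its share was 3.64% and 11.6% in the adenosquamous tumours, 32.7% in tumour 3 and 23.4% in tumour 4.

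The next enzymes have 1 measured gene each, and none passed. Tpi1, the triose-phosphate isomerase, was at 87.0, 94.8 and 334 CPM in glands and 134 to 161 CPM in tumours (adjusted p = 0.785). Gapdh, often used as a reference gene, was at 354, 680 and 1074 CPM in glands and at 284 to 383 CPM in tumours (log2 -1.07, SE 0.41, adjusted p = 0.135). Pgk1, the phosphoglycerate kinase, was at 48.8, 48.8 and 119 CPM in glands and 85 to 110 CPM in tumours (adjusted p = 0.435). For all 3 genes gland 3 was the highest library and the tumours stayed within a narrow range. Gapdh and Pgk1 have many processed copies in the genome, and their counts held fractional estimates in all 7 libraries, so their levels are uncertain.

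Phosphoglycerate mutase transcripts were almost all those of Pgam1 in every tumour. Pgam1, the general isoform, was at 52.0, 76.9 and 51.2 CPM in glands and at 124, 146, 107 and 96.8 CPM in tumours. Every tumour exceeded every gland, but the 1.97-fold difference did not pass in edgeR (log2 0.98, SE 0.28, adjusted p = 0.0689). Pgam1 passed in DESeq2 (adjusted p = 0.00921) and in limma-voom (adjusted p = 0.0486). Pgam1 also has processed copies, and its counts were fractional in 5 libraries. Pgam2, the muscle isoform, was at 47.7 and 187 CPM in glands 1 and 3, had 2 counts (0.063 CPM) in gland 2, 21 counts (1.79 CPM) in tumour 1a and 0 counts in the other 3 tumours. A count of 0 there allows up to 0.408, 0.296 and 0.105 CPM in tumours 1b, 3 and 4. Gland 2 thus lay with the tumours, and the fitted log2 difference was -7.46 (SE 2.35, adjusted p = 0.0897). Against gland 2 alone no fold is given, since its 2 counts are under the limit of 3. Per length, Pgam2 held 68.4% and 89.6% of the step in glands 1 and 3, 0.193% in gland 2 and at most 3.30% in tumours.

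Enolase transcripts also differed among the glands. Eno3, the muscle isoform, was at 94.4, 1.70 and 627 CPM in glands 1, 2 and 3 and at 10.8, 1.5, 2.86 and 1.05 CPM in tumours (log2 -5.89, SE 1.71, adjusted p = 0.0746). Without gland 2 Eno3 passed (log2 -6.48, adjusted p = 0.0398), without gland 3 its log2 difference was -3.56, and against gland 2 alone it was 1.17. Eno1, the general isoform, was at 88.4, 229 and 123 CPM in glands and 144 to 174 CPM in tumours (adjusted p = 0.87). Eno2, the neuronal isoform, was at 2.12 to 4.0 CPM in glands, at 7.06 and 19.3 CPM in the adenosquamous tumours, above all glands, and at 2.46 and 3.10 CPM in the spindle cell and papillary tumours. Its difference in the adenosquamous tumours did not pass (log2 1.96, SE 0.54, adjusted p = 0.0716). The levels of Pfkm, Pgam2 and Eno3 had the order of the muscle markers among the glands (gland 3, then 1, then 2), and tumour 1a, with the highest muscle marker mean of the tumours (3.75), had the highest value of each among tumours. The part of muscle in these differences was not tested.

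**Figure D5:**
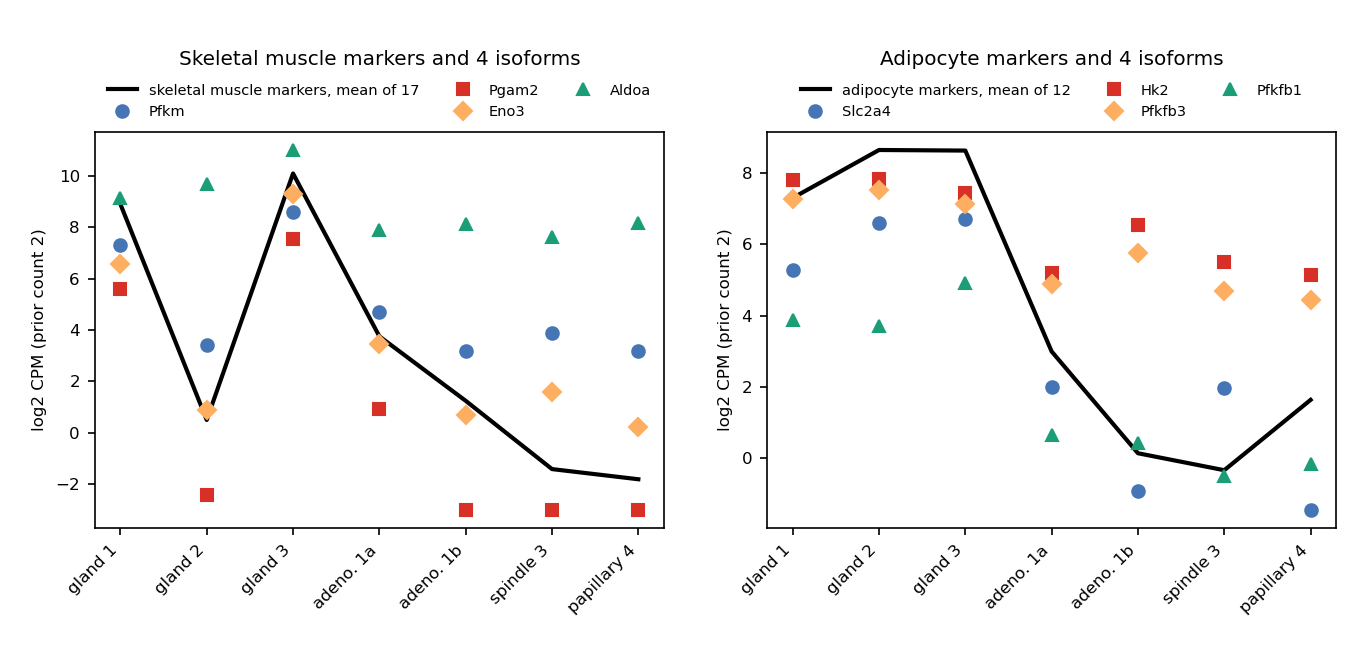
Mean log2 CPM of 17 skeletal muscle markers (left, black line) and of 12 adipocyte markers (right, black line) in each of the 7 libraries, with 4 isoforms each as coloured points. Pfkm, Pgam2 and Eno3 are low in gland 2, where the muscle mean is 0.49, whereas Slc2a4, Hk2, Pfkfb3 and Pfkfb1 are high in all 3 glands.

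Pyruvate kinase was read from Pkm alone, at 294, 453 and 822 CPM in glands and 514, 841, 509 and 487 CPM in tumours (log2 0.17, SE 0.44, adjusted p = 0.825). Tumour 1b was above the other tumours, and the gland and tumour ranges overlapped. The spliced forms PKM1 and PKM2 come from the same gene and are summed in these counts.

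Lactate dehydrogenase interconverts pyruvate and lactate. Ldha, the subunit common in muscle and tumours, was at 206, 239 and 507 CPM in glands and 177 to 224 CPM in tumours (log2 -0.64, SE 0.37, adjusted p = 0.279). Ldhb, the heart-type subunit, was at 141, 104 and 66.2 CPM in glands, at 18.6 and 21.0 CPM in tumours 1a and 1b, 6.31 CPM in the spindle cell tumour and 86.9 CPM in the papillary tumour. The papillary tumour lay within the glands and the other tumours below them. In the adenosquamous tumours Ldhb fell 5.55-fold (log2 -2.47, SE 0.44, adjusted p = 0.0289), and over all 4 tumours it did not pass (log2 -1.64, adjusted p = 0.217). Without the papillary tumour Ldhb passed (log2 -2.84, adjusted p = 0.0272). The adenosquamous call was lost without gland 3 and without either tumour. Ldhb held 21.6% to 59.0% of the step in glands. The papillary tumour had 46.0%, and the other tumours 6.30% to 18.1%.

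Lactate leaves cells through monocarboxylate carriers. Slc16a1, which encodes MCT1, was at 59.1, 47.6 and 33.5 CPM in glands, 25.8, 20.4 and 17.4 CPM in tumours 1a, 1b and 3, and 98 CPM in the papillary tumour. The papillary tumour was above all glands and the other tumours below them (log2 -0.20, SE 0.64, adjusted p = 0.861). Slc16a3, which encodes MCT4, the carrier of highly glycolytic cells, was at 2.83, 0.189 and 5.83 CPM in glands, 16.7 and 43.1 CPM in tumours 1a and 1b and 5.52 and 3.0 CPM in the spindle cell and papillary tumours. Only the adenosquamous pair was above the glands, and the difference in that pair did not pass (log2 3.28, SE 1.18, adjusted p = 0.128). Slc16a3 held 35% and 63.8% of the step in 1a and 1b, 20.8% and 2.48% in the spindle cell and papillary tumours and 0.329% to 12.6% in glands.

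The pyruvate dehydrogenase kinases switch off the entry of pyruvate into the citric acid cycle. Pdk4, the isoform induced in fasting and fat use, was at 388, 118 and 275 CPM in glands and at 39.0, 20.8, 12.4 and 367 CPM in tumours 1a, 1b, 3 and 4. The papillary tumour lay within the range of the glands and the others lay below it. In the adenosquamous tumours Pdk4 fell 9.20-fold (log2 -3.20, SE 0.68, adjusted p = 0.0415), and over all 4 tumours the log2 difference was -1.24 (SE 1.15, adjusted p = 0.505). Without the papillary tumour Pdk4 passed (log2 -3.51). Pdk2, the widely expressed isoform, was at 39.3, 40.5 and 106 CPM in glands and 6.30, 4.22, 18.1 and 20.8 CPM in tumours, all below the glands. It fell 12.2-fold in the adenosquamous tumours (log2 -3.60, SE 0.60, adjusted p = 0.026), while over all tumours it did not pass (log2 -2.32, SE 0.65, adjusted p = 0.0684 in edgeR and 0.00771 in DESeq2). The adenosquamous calls of both genes were lost without gland 1, gland 3 or either tumour.

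Pdk3 and Pdk1 did not follow Pdk2 in all tumours. Pdk3 was at 2.56 to 3.40 CPM in glands, 14.9, 5.99 and 22.6 CPM in tumours 1a, 1b and 3 and 0.662 CPM in the papillary tumour. Here the papillary tumour lay below all glands and the other tumours above them (log2 1.90, SE 0.99, adjusted p = 0.244). Without the papillary tumour Pdk3 passed (log2 2.24). Pdk1, a known target of hypoxia-inducible factor, was at 37.1, 39.9 and 60.9 CPM in glands, 19.6 and 24.1 CPM in the adenosquamous tumours and 41.4 and 55.3 CPM in the spindle cell and papillary tumours (log2 -0.39, SE 0.41, adjusted p = 0.56). The adenosquamous pair lay below all glands, but its difference in Pdk1 did not pass in edgeR (log2 -1.14, SE 0.32, adjusted p = 0.0766). Per length, Pdk4 held 63.6% to 85.8% of the kinase transcripts in glands and 88.2% in the papillary tumour. In the spindle cell tumour Pdk3 held 37.7%, Pdk2 24.5%, Pdk1 22.7% and Pdk4 15.1%.

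The spindle cell and papillary tumours are single libraries, so their values were set beside the glands without a test. In the spindle cell tumour Slc2a1, Aldoc and Pdk3 were more than 1 on the log2 scale above the highest gland, 3 of 33 genes where 10.2% of all genes were. Slc2a3, Slc2a4, Hk2, Pfkfb1, Pfkfb3, Aldoa, Ldhb, Pdk2 and Pdk4 were that far below the lowest gland, 9 of 33 where 11.8% of all genes were. In the papillary tumour Slc2a1, Hk3 and Aldoc were that far above, 3 of 33 where 14.1% of all genes were. Slc2a3, Slc2a4, Hk2, Pfkp, Pfkfb1, Pfkfb3 and Pdk3 were that far below, 7 of 33 where 15.6% of all genes were. Slc2a1 and Aldoc above and Slc2a3, Slc2a4, Hk2, Pfkfb1 and Pfkfb3 below were thus shared by both tumours, which are set against the same glands.

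Summed over isoforms, 5 steps had every tumour below every gland in CPM per kilobase, and 0 steps had every tumour above; of single genes 13.2% lay below and 16.3% above in this way. These were glucose-6-phosphate isomerase (49.7 ± 4.85 in glands and 30.2 ± 4.34 in tumours), the Pfkfb enzymes, aldolase (402 ± 275 and 106 ± 18.8), enolase (167 ± 189 and 33.4 ± 3.60) and lactate dehydrogenase (162 ± 29.6 and 82.6 ± 26.4). Each had an exact permutation p of 0.0571, the smallest possible with 4 tumours and 3 glands (adjusted p = 0.171 over 15 steps). The hexokinase total was 40.6 ± 6.27 in glands and 22.1 ± 11.5 in tumours, where tumour 1b (39.0) overlapped the glands. Gland and tumour ranges overlapped for pyruvate kinase (105 ± 54.2 and 118 ± 33.8) and the monocarboxylate carriers (11.1 ± 2.62 and 12.3 ± 7.60). For the carriers the papillary tumour (22.7) was above all glands and the spindle cell tumour (4.98) below them. Pyruvate kinase in tumour 1b (168) was just above the highest gland (164).

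Pathways that branch from glycolysis were read from lists of other genes, also chosen with earlier results of these data known. Of 17 genes of glycogen synthesis and breakdown, 9 fell and 0 rose in edgeR, where 4.57% of all genes fell and 3.9% rose, with a median log2 fold change of -2.11 where that over all genes was 0.12. Ugp2, which makes UDP-glucose, fell 5.31-fold, from 186 ± 9.23 to 35.1 ± 7.16 CPM (log2 -2.41, SE 0.25, adjusted p = 0.00805). Gbe1, the branching enzyme, fell by 3.35 on the log2 scale (adjusted p = 0.00905), and Phka2, a phosphorylase kinase subunit, fell by 1.22 (adjusted p = 0.0247). In gland 2, with muscle markers low, Ugp2 was at 181 CPM, above all tumours. The number that fell was 3 without gland 1, 2 without gland 3, 5 without tumour 1a, 3 without tumour 1b and 3 without tumour 3. Against gland 2 alone it was 0 in edgeR (8 at an unadjusted p under 0.05).

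Of 11 genes of pyruvate entry into mitochondria and of the pyruvate dehydrogenase complex, the enzyme that the Pdk kinases inhibit, 6 fell and 0 rose, where 4.57% of all genes fell and 3.9% rose, with a median of -1.97. Pdha1, its E1 alpha subunit, was at 612, 622 and 529 CPM in glands and 106, 85.8, 141 and 150 CPM in tumours, with no overlap (log2 -2.28, SE 0.30, adjusted p = 0.0102). Pdhb, the E1 beta subunit, fell by 2.69, Dld, the E3 subunit, by 2.93 and Pdhx, the E3-binding protein, by 1.97 on the log2 scale (adjusted p = 0.0158, 0.016 and 0.0162). In the adenosquamous tumours 10 of the 11 fell, where 5.36% of all genes did. That number was 0 in edgeR without gland 3, 1 without tumour 1a and 0 without tumour 1b (10 at an unadjusted p under 0.05 in each). Over all tumours the number was 2, 3, 1 and 2 without gland 1, 2 or 3 or without tumour 1b, 10 without the papillary tumour, and 0 in edgeR against gland 2 alone (5 at an unadjusted p under 0.05).

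Of 10 genes of the cytosolic NADH shuttles, 1 rose and 2 fell, where 3.9% of all genes rose and 4.57% fell. Slc25a13, which encodes citrin, the aspartate-glutamate carrier of the malate-aspartate shuttle, was at 2.04 to 2.48 CPM in glands and at 7.15, 13.6, 9.56 and 21.6 CPM in tumours (log2 2.56, SE 0.47, adjusted p = 0.0227). Gpd1 and Gpd2, the pair of glycerol 3-phosphate dehydrogenases that form the other shuttle, fell by 4.30 and 2.69 on the log2 scale (adjusted p = 0.0414 and 0.0166). Slc25a13 did not pass without any 1 gland or without tumour 1b, and 0 shuttle genes fell in edgeR without gland 1, gland 3 or the spindle cell tumour (4, 5 and 4 changed at unadjusted p under 0.05) and 1 without tumour 1a. Of 8 genes of the pentose phosphate pathway 0 passed in edgeR (3 at unadjusted p under 0.05, and 3 fell in DESeq2 and 0 in limma-voom); Tkt, transketolase, had the smallest p (log2 -2.41, SE 0.72, adjusted p = 0.0811). Of 26 other isoforms and neighbouring enzymes, 14 could be tested and 1 fell: Slc2a5, the fructose carrier GLUT5 (8.13, 46.7 and 11.4 CPM in glands and at most 0.596 CPM in tumours; log2 -6.68, SE 1.28, adjusted p = 0.0257). Slc2a5 did not pass when any 1 gland, tumour 1b or the spindle cell tumour was left out.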

How the data were processed

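Per the labels' protocols, total RNA was sequenced as paired reads of TruSeq libraries, which do not mark the strand. Per the submitters' processing notes, STAR 2.5, RSEM 1.3, limma and the build GRCm38 were used, with no role stated. The deposited values, in a column headed TPM, sum to different totals in each library, so they were treated like expected counts, estimated by the authors, and rounded here. Of the 34 genes, 15 overlap a gene on the opposite strand, counted over whole gene spans with introns. Fractional estimates in at least 1 library were held by 9. Reads of such overlaps or of near-identical copies may thus be shared.

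Members and lists were chosen with earlier results of these data known. All 34 genes may be named; of each pathway list at most 4 that passed per direction, those with the smallest p, or the 1 with the smallest p if none passed; 1 gene so chosen is not reported here. Differential expression used edgeR 4.0.16 under R 4.3.3 (quasi-likelihood F test, TMM factors 0.551 to 1.605, filterByExpr with a minimum count of 10 and total of 15, two-sided, Benjamini-Hochberg over all genes), a procedure tested on simulated data. SEs were computed as the absolute log2 fold change over the root of the F statistic. CPM uses TMM-scaled library sizes, and log2 CPM a prior count of 2. Levels per kilobase use the union of exons in GENCODE M21. A count of 0 is given the limit of 3 counts, which covers counting error only. Of 19 isoform pairs planned, the pair with Pklr had no counts, which left 18. Isoform ratios and step totals were tested by exact permutation. No pair of libraries within a group agreed within sampling noise. Sequences are from RefSeq (GRCm38.p6). Alternatives were DESeq2 1.42.0, limma-voom (limma 3.58.1), 2 other scalings, scaling without mitochondrial genes, 2 other filters, each library left out in turn and gland 2 as the only control. The pathway counts under these alternatives were added after seeing the data.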

Additional observations from a re-analysis of the deposited data

Results flagged for a closer look

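Among the 4 tumours, Pgam2 stood apart in adenosquamous tumour 1a, at 0.93 log2 CPM, where the other 3 tumours had 0 counts. Pkm stood apart in adenosquamous tumour 1b, at 9.72 log2 CPM, above the other 3 tumours. For Pkm, a gap of this size arises by chance in about 1 in 20 groups of samples, and 33 genes were looked at. That rate does not apply to Pgam2, since the other 3 tumours share the value of a 0 count. Any count in tumour 1a would have set it apart.

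For 3 genes, tumour types lay on opposite sides of all glands, a difference that was not tested because the spindle cell and papillary types have 1 library each. Hk3 was above the glands in the adenosquamous tumours and below them in the spindle cell tumour, a gap of 4.30 on the log2 CPM scale. The spindle cell tumour had 6 counts of Hk3 and gland 1 had 2, under the limit of 3, so the order of these libraries is uncertain. Between the spindle cell and papillary tumours the gap in Hk3 was -2.38. Slc16a1 was below the glands in the adenosquamous and spindle cell tumours and above them in the papillary tumour, with gaps of -2.09 and -2.48 to the papillary tumour. Pdk3 was above the glands in the adenosquamous and spindle cell tumours and below them in the papillary tumour, with gaps of 3.61 and 4.85.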

How the results depend on the processing

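No paired analysis was possible because the labels pair no gland with a tumour. The comparisons rest on 3 glands and 4 tumours, gland 1 and tumours 1a, 1b and 3 are shallower than the other libraries, and the cause of each change below was not tested. For the counts of genes of the set called over all tumours, median-ratio and upper-quartile scaling, scaling without mitochondrial genes and a filter of 10 counts in every library of an arm gave values within 1.5 times of the reported ones.

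With each library left out in turn, the genes of the set called higher in tumours ranged from 0 to 2 and those called lower from 1 to 7. In the adenosquamous comparison they ranged from 0 to 2 and from 0 to 9. DESeq2 called 3 higher and 9 lower in tumours, and 6 and 10 in the adenosquamous tumours. Limma-voom called 2 higher in tumours and 1 in the adenosquamous tumours, and no filter gave 4 higher and 11 lower in the latter. With gland 2 as the only control 0 were called in either comparison in edgeR (9 and 12 at unadjusted p under 0.05), where no gene of 16520 and 15748 passed. In the papillary tumour 1 gene was more than 2 above the glands on the log2 scale. Isoform pairs without overlap ranged from 6 to 10.

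Of the pathway lists, with libraries left out in turn, 2 to 9 glycogen genes fell, 1 to 10 of pyruvate entry (0 to 10 in the adenosquamous tumours), 0 to 1 of the pentose phosphate pathway and 0 to 3 of the shuttles, where 0 to 1 rose. Of other isoforms 0 to 2 fell and 0 to 1 rose. DESeq2 called 4 other isoforms and 3 pentose phosphate genes lower, and limma-voom 2 other isoforms. With gland 2 as the only control all of these counts were 0 in edgeR (2 to 8 at unadjusted p under 0.05).

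Differences near 0 changed sign. In log2 fold change over all tumours, with each library left out, they were -0.75 to 0.25 for Pfkp, -0.03 to 0.28 for Pfkfb2, -0.49 to 0.88 for Pfkfb4, -0.53 to 0.69 for Tpi1, -0.14 to 0.58 for Eno1, -0.11 to 0.65 for Pkm and -1.21 to 0.10 for Slc16a1. In the adenosquamous tumours they were -0.29 to 0.27 for Pfkl, -0.73 to 0.15 for Pfkfb2, -0.10 to 1.38 for Pfkfb4, -0.71 to 1.31 for Aldoc, -0.60 to 0.60 for Tpi1, -0.19 to 0.48 for Eno1 and -0.03 to 0.77 for Pkm. The difference in the ratio of Pdk2 to Pdk4 was -0.93 to 0.63. Step totals differed by -0.28 to 0.69 for triose-phosphate isomerase, -1.27 to 0.07 for phosphoglycerate mutase, -0.09 to 0.65 for pyruvate kinase and -0.40 to 0.33 for the monocarboxylate carriers, which were at 0.04 with the longest transcript as length. With gland 2 as the only control, Pfkl was at -0.10, Pfkm at 0.38, Tpi1 at 0.56, Pgam2 at 2.62 (from 2 counts in gland 2 and 21 in tumour 1a, hence no measure of a fold), Eno1 at -0.60 and Eno3 at 1.17 over all tumours. In the adenosquamous tumours they were at -0.33, 0.63, 0.56, 3.65, -0.62 and 1.78. In limma-voom Pfkfb4 was at -0.29 and Tpi1 at 0.02.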
